A study of Mus musculus with 24 samples.

Results

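The genes *Fezf2*, *Sox5*, *Tle4*, *Zfpm2*, *Ldb2*, and *Nr4a2* mark deep-layer projection neurons and subplate neurons of the cortex. Peaks of 3 transcriptional regulators (TRs) were collected over each gene body (first to last base of the gene in GENCODE vM21, build GRCm38) and the 100 kb on either side. The 6 windows covered 3.10 Mb and held 690 of the 314954 peaks that the 6 peak lists placed on the main chromosomes. The 6 genes were taken by name out of 21951 protein-coding genes. A promoter peak reached by at least 1 base into the 2000 bp before a transcription start site (TSS) of the member. A gene body peak overlapped the rest of the gene, and a flanking peak lay outside it.

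Deep-layer neurons are the earliest-born projection neurons of the cortical plate, and subplate neurons lie below it and form transient circuits with thalamic axons. *Fezf2* encodes a zinc finger factor that specifies subcerebral projection neurons, and *Sox5* encodes an HMG-box factor that sets the timing and position of deep-layer and subplate neurons. *Tle4* encodes a Groucho-type corepressor of layer 6 corticothalamic neurons, *Zfpm2* (FOG2) a zinc finger cofactor of GATA and nuclear receptor proteins, *Ldb2* an adaptor that joins LIM-domain factors into complexes, and *Nr4a2* (NURR1) an orphan nuclear receptor used as a subplate marker.

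ChIP-seq was performed on cortex of wild-type mice, kept on a CD1 background, at E15.5 (embryonic day, the earlier stage) and at E18.5 (the later stage). The TRs were ARID1B, which belongs to BAF chromatin remodelers, the forkhead factor FOXP1, and TCF7L2, an HMG-box effector of Wnt signaling. The labels call the last target TCF4, and the antibody in the methods is against TCF7L2, whose name is used here. The 12 ChIP and 12 input libraries came as 2 biological replicates per TR, stage, and kind, and the peaks analysed were called on merged replicates. There was thus 1 list per TR and stage with no spread between replicates, and no difference between lists was tested. Bulk cortex was used, so binding in fewer cells and weaker binding in each cell cannot be told apart. The sources used here do not say whether a library came from 1 embryo or from several.

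Each peak carries a fold enrichment, which is the read pileup at its summit over a constant background, with 1 added to both. The added 1 lowers a fold above 1, and lowers it more where the background is low. The background recovered from the tie between fold and p-value was 2.81 reads for FOXP1 at E18.5 and 6.13 to 8.63 reads in the other lists. The FOXP1 list of E18.5 was also the shortest, with 24872 peaks against 32992 to 71411. Intervals printed below are exact 95% Poisson intervals of the pileup and cover counting error only. The promoters of the projection neuron markers *Emx1*, *Neurod2*, *Neurod6*, and *Tbr1* held a peak in all 6 lists. The 3 endothelial (*Cldn5*, *Pecam1*, *Tek*) and 4 microglial (*Aif1*, *Cx3cr1*, *P2ry12*, *Csf1r*) markers held none, and neither did 7 of the 8 non-neural ones (*Alb*, *Hnf4a*, *Cdx2*, *Myod1*, *Gata1*, *Pdx1*, *Ins2*), while *Nkx2-5* held one in 3 lists. All 4 interneuron markers held a peak in at least 1 list.

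ARID1B had most peaks in the member windows at both stages, 187 at the earlier stage and 181 at the later stage. FOXP1 had 145 peaks at the earlier stage and 33 at the later stage, and TCF7L2 had 51 and 93. Most ARID1B peaks lay in gene bodies, 124 of 187 and 117 of 181, and all but 4 of those at each stage had their summit in an intron. FOXP1 gene body peaks numbered 95 at the earlier stage and 13 at the later stage, and TCF7L2 ones 24 and 51. Promoter peaks varied less between lists. ARID1B had 19 and 18, FOXP1 13 and 10, and TCF7L2 14 and 15. When every list was reduced to its 24872 strongest peaks, the windows held 63 ARID1B peaks at each stage. FOXP1 then had 46 at the earlier stage and 33 at the later one, and TCF7L2 had 39 and 43.

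**Figure D1:**
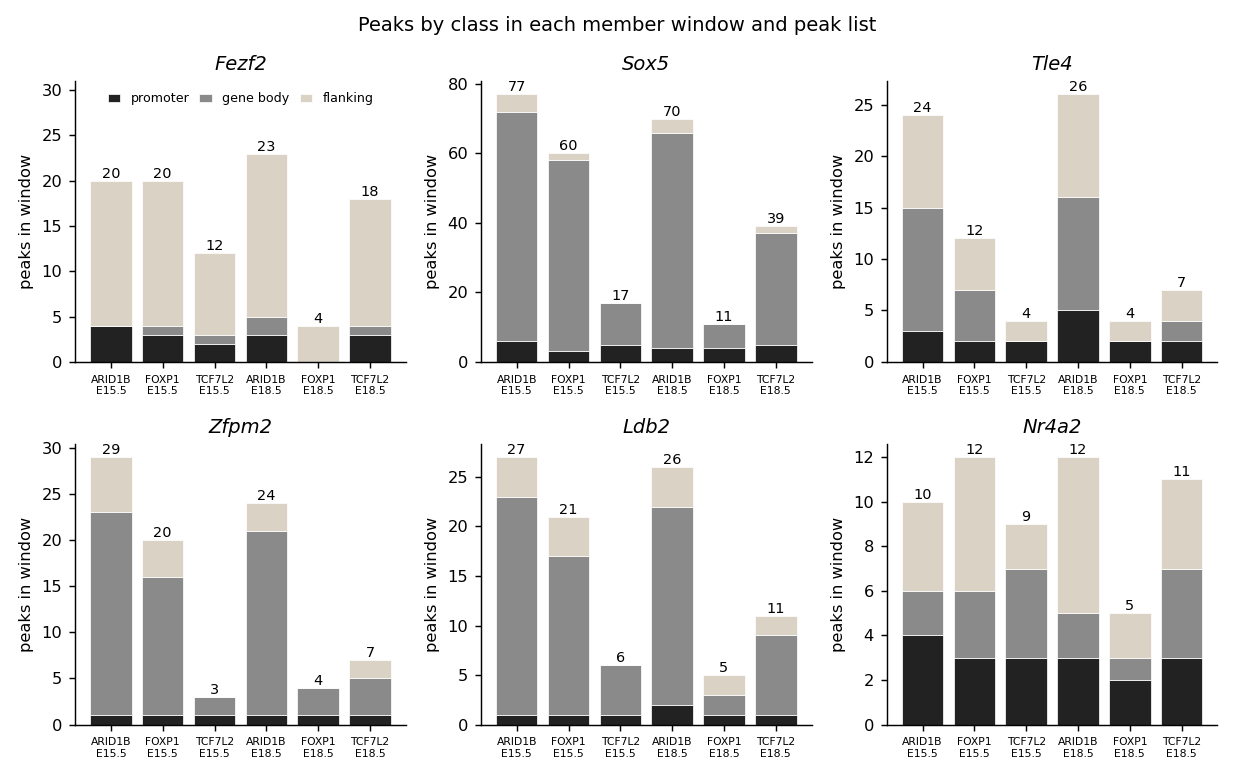
Number of peaks in each member window (y axis) by peak list (x axis), stacked by promoter, gene body, and flanking class, with the total above each bar. *Sox5* held the most peaks in each list (11 to 77). *Fezf2* held 20 FOXP1 peaks at E15.5 against 4 at E18.5, from lists of 64059 and 24872 peaks.

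*Sox5*, the longest member, had the most peaks in each list, while the density per 100 kb was highest at *Fezf2* in each list other than FOXP1 at E18.5. *Sox5*, a gene of 954 kb, had 77 ARID1B peaks at E15.5, or 6.68 per 100 kb of window. *Fezf2*, a gene of 6.10 kb, had 20, or 9.70 per 100 kb. Among the windows of all protein-coding genes built the same way, the *Fezf2* window stood above 94.1% of windows for ARID1B at E15.5 and 97.0% at E18.5. It stood above 92.4% for FOXP1 at E15.5 but 58.4% at E18.5, and above 87.8% and 87.5% for TCF7L2. At the other end, the *Zfpm2* window had 0.462 TCF7L2 peaks per 100 kb at the earlier stage and 1.08 at the later stage, above 21.8% and 28.3% of windows. Neighboring genes share windows, so these ranks describe position only.

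Promoters came first in the comparison of members. Each member had a promoter peak in each list, with the exception of *Fezf2*, which had none for FOXP1 at E18.5. Among all protein-coding genes, the share with an ARID1B promoter peak was 58.8% at the earlier stage and 57.3% at the later one. For FOXP1 the shares were 61.8% and 55.0%, and for TCF7L2 they were 57.3% and 61.2%. A promoter locus with all 3 TRs, that is a union of overlapping peaks of which each TR's peak reached the promoter, was found for 6 of 6 members at E15.5, where 55.2% of protein-coding genes had one. At E18.5 it was found for 5 of 6 members against 52.5% of genes. In lists of equal length, 6 of 6 and 3 of 6 members had such a locus, against 39.2% and 38.5% of protein-coding genes in the same lists. With only peaks of −log10 p of at least 15, 5 of 6 and 2 of 6 members did, against 39.0% and 34.6% of genes.

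*Tle4* (chr19:14448150-14598051, minus strand), the corepressor gene, had the strongest promoter peaks of the 6 members in all 6 lists. At E15.5 its fold enrichment was 8.81 (7.18 to 10.7) with ARID1B, 10.6 (8.49 to 13.1) with FOXP1, and 9.74 (7.88 to 11.9) with TCF7L2. At E18.5 it was 10.7 (8.41 to 13.3), 11.7 (9.34 to 14.6), and 9.41 (7.54 to 11.6). The intervals of the stages overlapped for each TR. Compared with all genes that had a promoter peak in the same list, *Tle4* stood above 95.6% and 97.2% for ARID1B at the 2 stages and above 92.4% and 87.6% for TCF7L2. For FOXP1 it stood above 49.3% and 85.7%, in the same order. The TCF7L2 summit of E15.5 lay upstream of the outermost TSS, outside any exon. The 120 bp around it are shown because the TCF/LEF letters ATCAAAG stood 16 bp from the summit. They are in capitals, with the E-box CAGCTG beside them.
Tle4 promoter, chr19:14598473-14598592, plus strand: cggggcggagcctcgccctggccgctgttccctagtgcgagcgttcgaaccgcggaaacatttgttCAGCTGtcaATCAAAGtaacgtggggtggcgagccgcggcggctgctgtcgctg

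*Fezf2* had 4.64 with ARID1B, 6.20 with FOXP1, and 5.77 with TCF7L2 at E15.5, and 6.17 for ARID1B and 7.99 for TCF7L2 at E18.5. *Nr4a2* had 4.64, 7.59, and 6.92 at the earlier stage and 7.43, 6.88, and 7.33 at the later stage. *Sox5* had 4.73, 7.34, and 5.35 at the earlier stage and 6.03, 4.24, and 6.02 at the later one. These strongest peaks of *Sox5* and *Nr4a2* were not all at the same TSS. For *Sox5* they lay at an internal TSS for ARID1B at both stages and TCF7L2 at E15.5, and at the outermost one for FOXP1 and TCF7L2 at E18.5. The FOXP1 peak of *Sox5* at E15.5, 3600 bp wide, reached an internal promoter, with its summit in an intron 1264 bp past the TSS. For *Nr4a2* they lay at an internal TSS except for FOXP1 at E15.5. *Zfpm2* and *Ldb2* were lower in all 3 TRs at the later stage, and the intervals of the stages overlapped for both. *Zfpm2* had 5.35, 6.83, and 5.88, then 4.63, 5.85, and 5.69. *Ldb2* had 4.81, 5.95, and 4.83, then 4.49, 4.53, and 3.50. Against all genes with a promoter peak in the same list, the highest of these ranks were *Nr4a2* for ARID1B at E18.5, above 81.4% of genes, and *Fezf2* for TCF7L2 at E18.5, above 71.3%. At E18.5, *Sox5* stood above 2.45% of genes with a FOXP1 promoter peak, *Ldb2* above 4.62%, *Zfpm2* above 16.9%, and *Nr4a2* above 27.2%. The median over members with a promoter peak was 7.09 for FOXP1 at the earlier stage and 5.85 at the later stage, against 10.6 and 8.65 over all genes with one. For ARID1B it was 4.77 and 6.10 against 5.17 and 5.61, and for TCF7L2 5.82 and 6.68 against 6.40 and 6.57.

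**Figure D2:**
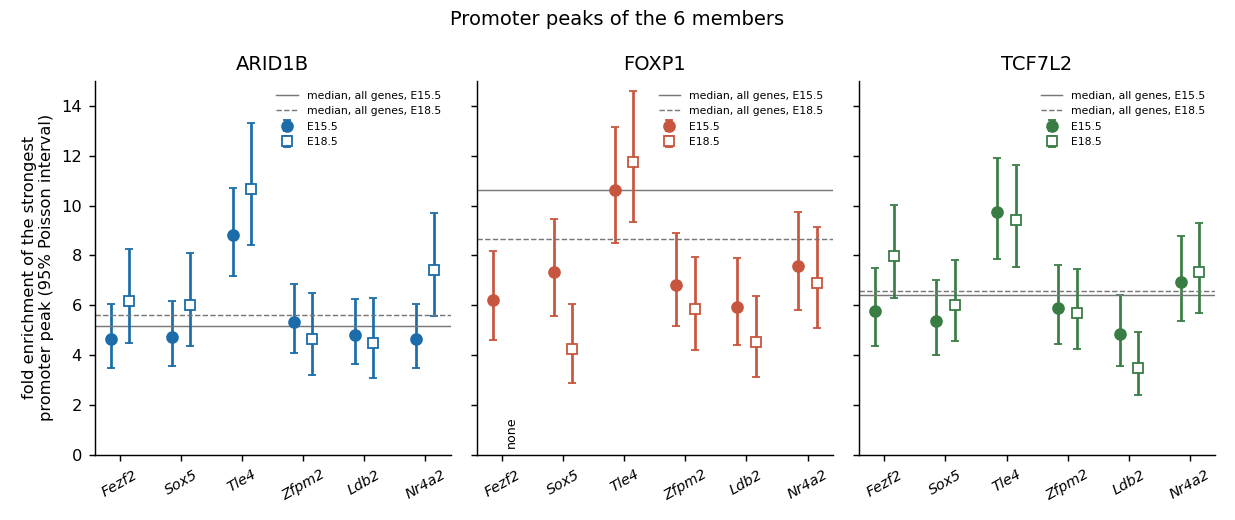
Fold enrichment of each member's strongest promoter peak (y axis) at E15.5 (filled circles) and E18.5 (open squares) in 1 panel per TR, with exact 95% Poisson intervals and the median over all protein-coding genes with a promoter peak (solid line E15.5, dashed line E18.5). *Tle4* is highest in each panel, and *Fezf2* has no FOXP1 point at E18.5.

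Outside promoters, *Fezf2* (chr14:12342094-12348189, minus strand) had 3 strong flanking loci. Downstream of the gene, 3.93 kb past its end, a locus at chr14:12336626-12340027 held peaks in all 6 lists. Its fold enrichment was 9.88 with ARID1B, 7.59 with FOXP1, and 5.98 with TCF7L2 at the earlier stage, and 10.4, 5.27, and 7.44 at the later stage. Upstream of the outermost TSS, within introns of the neighboring gene *Cadps*, a locus 45.5 kb away (chr14:12392747-12394052) also held peaks in all 6 lists. There the values were 8.90, 4.94, and 6.92 at the earlier stage and 10.5, 4.53, and 8.43 at the later stage for ARID1B, FOXP1, and TCF7L2. A locus 41.0 kb upstream (chr14:12388212-12389764) held the strongest TCF7L2 peaks of all member windows, with 13.5 (11.3 to 16.0) at the earlier stage and 14.0 (11.7 to 16.7) at the later stage. They ranked 102 of 32992 and 103 of 53173 TCF7L2 peaks. ARID1B had 9.35 and 7.01 at this locus, and FOXP1 had 6.58 at the earlier stage and no peak at the later stage. The 120 bp around the strongest summit of each locus are shown with an E-box CAGATG in capitals where present. The TCF/LEF letters ATCAAAG were not in the 200 bp around the strongest TCF7L2 summit, while CAGATG was, outside the 120 bp shown.
Fezf2 downstream locus, chr14:12338108-12338227, plus strand: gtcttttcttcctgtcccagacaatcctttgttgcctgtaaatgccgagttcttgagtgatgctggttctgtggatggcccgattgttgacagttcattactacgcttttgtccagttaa
Fezf2 locus of the strongest TCF7L2 peak, chr14:12389112-12389231, plus strand: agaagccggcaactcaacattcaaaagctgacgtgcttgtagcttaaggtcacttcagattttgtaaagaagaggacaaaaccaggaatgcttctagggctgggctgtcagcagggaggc
Fezf2 upstream locus, chr14:12393647-12393766, plus strand: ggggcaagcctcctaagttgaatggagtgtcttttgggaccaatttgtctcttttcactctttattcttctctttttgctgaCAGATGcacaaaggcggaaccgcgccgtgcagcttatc

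The *Fezf2* window also held the shared promoter of *Gm49355* and *3830406C13Rik*, 57.8 kb past the end of *Fezf2*, with peaks in all 6 lists. ARID1B had 4.46 and 6.31 there at the stages, FOXP1 9.75 and 6.30, and TCF7L2 5.56 and 5.25. Peaks also covered promoters of the snoRNA gene *Gm24578*, in 5 lists, and of *Cadps* in this window. FOXP1 went from 20 peaks in the *Fezf2* window at E15.5 to 4 at E18.5, none of the 4 at the promoter or in the gene. TCF7L2 went from 12 to 18 and ARID1B from 20 to 23. The whole lists went from 64059 to 24872 peaks for FOXP1, 32992 to 53173 for TCF7L2, and 71411 to 68447 for ARID1B.

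*Sox5* (chr6:143828425-144781977, minus strand) held 94 of the 226 loci that result when the peaks of all 6 lists are merged, and 6 of them were in all 6 lists. The strongest was intronic (chr6:144451739-144453527), 243 kb from the nearest TSS. ARID1B had 12.2 (10.2 to 14.4) and 13.6 (11.0 to 16.6) there at E15.5 and E18.5, above 99.0% of the ARID1B peaks of each list. FOXP1 had 10.1 (8.04 to 12.6) and 6.59 (4.84 to 8.79), and TCF7L2 had 5.46 and 4.93. The FOXP1 intervals of the stages overlapped. An intronic locus at chr6:143994660-143995605 held the strongest TCF7L2 peaks of the gene, 8.38 at the earlier stage and 7.88 at the later stage, with ARID1B at 10.7 and 11.6 and FOXP1 at 8.10 at E15.5 only. The other 3 gene body loci in all 6 lists were weaker. The values of ARID1B, FOXP1, and TCF7L2 at chr6:144418717-144420267 were 6.24, 6.20, and 4.73 at the earlier stage and 8.28, 3.79, and 5.36 at the later one. The peaks at chr6:144180966-144181644 had 6.68, 5.06, and 3.27, then 6.73, 4.53, and 4.71, and those at chr6:144251161-144252169 had 4.81, 4.81, and 3.68, then 5.61, 4.97, and 3.28. *Sox5* also had the only locus of the 226 with all 3 TRs at 1 stage and none at the other. It lay in an intron at chr6:144202402-144202795 and was weak, at 2.68 with ARID1B, 3.67 with FOXP1, and 3.37 with TCF7L2 at E15.5. The promoter of the antisense gene *Sox5os2* was covered by a locus with peaks in 4 lists. The 120 bp around the strongest summit hold none of the letters searched.
Sox5 intronic locus, chr6:144452743-144452862, plus strand: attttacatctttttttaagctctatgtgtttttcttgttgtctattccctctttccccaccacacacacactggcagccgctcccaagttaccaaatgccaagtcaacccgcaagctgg

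*Tle4* had its strongest ARID1B peaks outside the gene. A locus 83.4 kb upstream (chr19:14680812-14681874) held the highest ARID1B values of all member windows, 15.4 (13.2 to 17.9) at the earlier stage and 16.8 (14.0 to 20.1) at the later stage, which ranked 207 of 71411 and 227 of 68447. FOXP1 had 8.86 and 5.41 there, and TCF7L2 had 4.62 and 5.14. A second locus in all 6 lists lay 12.2 kb past the end of the gene (chr19:14435301-14436873). ARID1B had 11.7 and 11.6 at that place, FOXP1 9.87 (7.82 to 12.3) and 5.71 (4.10 to 7.77), and TCF7L2 7.13 and 7.44. On these folds, which carry the added 1, the FOXP1 intervals of the stages did not overlap. The ratio of 0.578 was above 6.37% of all FOXP1 stage ratios. The promoter of the unclassified transcript *Gm37997* in this window was covered in 3 lists. Promoter peaks aside, in the gene body of *Tle4* FOXP1 had 5 peaks at the earlier stage and none at the later stage, TCF7L2 none and 2, and ARID1B 12 and 11.
Tle4 upstream locus, chr19:14681380-14681499, plus strand: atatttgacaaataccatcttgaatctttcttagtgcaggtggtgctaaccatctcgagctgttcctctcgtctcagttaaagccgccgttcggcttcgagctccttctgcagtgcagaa
Tle4 downstream locus, chr19:14435881-14436000, plus strand: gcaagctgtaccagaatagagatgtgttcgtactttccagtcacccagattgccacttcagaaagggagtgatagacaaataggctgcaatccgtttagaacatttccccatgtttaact
None of the letters searched was in these 120 bp windows, and CAGATG stood 72 bp from the summit of the upstream locus, outside the bases shown.

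*Ldb2* (chr5:44472132-44799680, minus strand), the adaptor gene, had 3 loci in all 6 lists. The strongest (chr5:44537310-44538565) lay in the gene, 3.05 kb upstream of an internal TSS. FOXP1 had 13.0 (10.7 to 15.8) there at E15.5, the highest gene body value of FOXP1 in the windows, and 8.95 (6.87 to 11.5) at E18.5. ARID1B had 11.7 and 12.9, and TCF7L2 had 5.88 and 6.57. The other gene body locus in all 6 lists (chr5:44659487-44660216) was weaker, with 4.99, 4.18, and 3.68 for ARID1B, FOXP1, and TCF7L2 at the earlier stage and 5.75, 4.53, and 3.28 at the later stage. Near the 3′ end of the gene, a locus at chr5:44473408-44474805 had ARID1B values of 13.7 (11.6 to 16.0) and 15.4 (12.7 to 18.6), TCF7L2 values of 6.08 and 7.22, and FOXP1 at 8.10 at E15.5 only. Promoters of *Gm36017*, in the flank, and *Gm43504*, in the gene, were also covered. Both windows hold E-box letters, shown in capitals. In the second, they read CATCTG, which is CAGATG on the other strand.
Ldb2 intronic locus, chr5:44538087-44538206, plus strand: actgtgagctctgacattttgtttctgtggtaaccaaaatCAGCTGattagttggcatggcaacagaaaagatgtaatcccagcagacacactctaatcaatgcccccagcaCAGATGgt
Ldb2 locus near the 3′ end, chr5:44474207-44474326, plus strand: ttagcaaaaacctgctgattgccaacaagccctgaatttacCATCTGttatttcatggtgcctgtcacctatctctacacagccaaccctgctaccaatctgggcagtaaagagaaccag

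*Zfpm2* (chr15:40655035-41104592, plus strand) had its promoter as the only locus in all 6 lists. Its gene body held 22 ARID1B peaks at the earlier stage and 20 at the later one, 15 and 3 FOXP1 peaks, and 2 and 4 TCF7L2 peaks. The highest intronic TCF7L2 values were 4.10 at the earlier stage and 4.38 at the later stage, in overlapping peaks near the 3′ end of the gene.

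*Nr4a2* (chr2:57106830-57124003, minus strand), the nuclear receptor gene, had 2 promoter loci in all 6 lists, at an internal TSS and at the outermost TSS. Another locus in all 6 lists lay 58.0 kb upstream at the divergent promoters of the noncoding genes *BB557941* and *4930555B11Rik* (chr2:57181491-57182699), with FOXP1 at 15.1 and 13.1, TCF7L2 at 7.44 and 6.13, and ARID1B at 5.26 and 6.31. Of the 226 loci, 19 were in all 6 lists, or 8.41%, against 17.7% of the 93916 loci of the whole genome. These shares are not matched by class. Of loci merged per stage, 183 of 208 in the windows lay away from promoters at E15.5, against 65293 of 86206 over the genome. By class, 7 of the 19 were at promoters, 6 in gene bodies, and 6 in flanks.

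**Figure D3:**
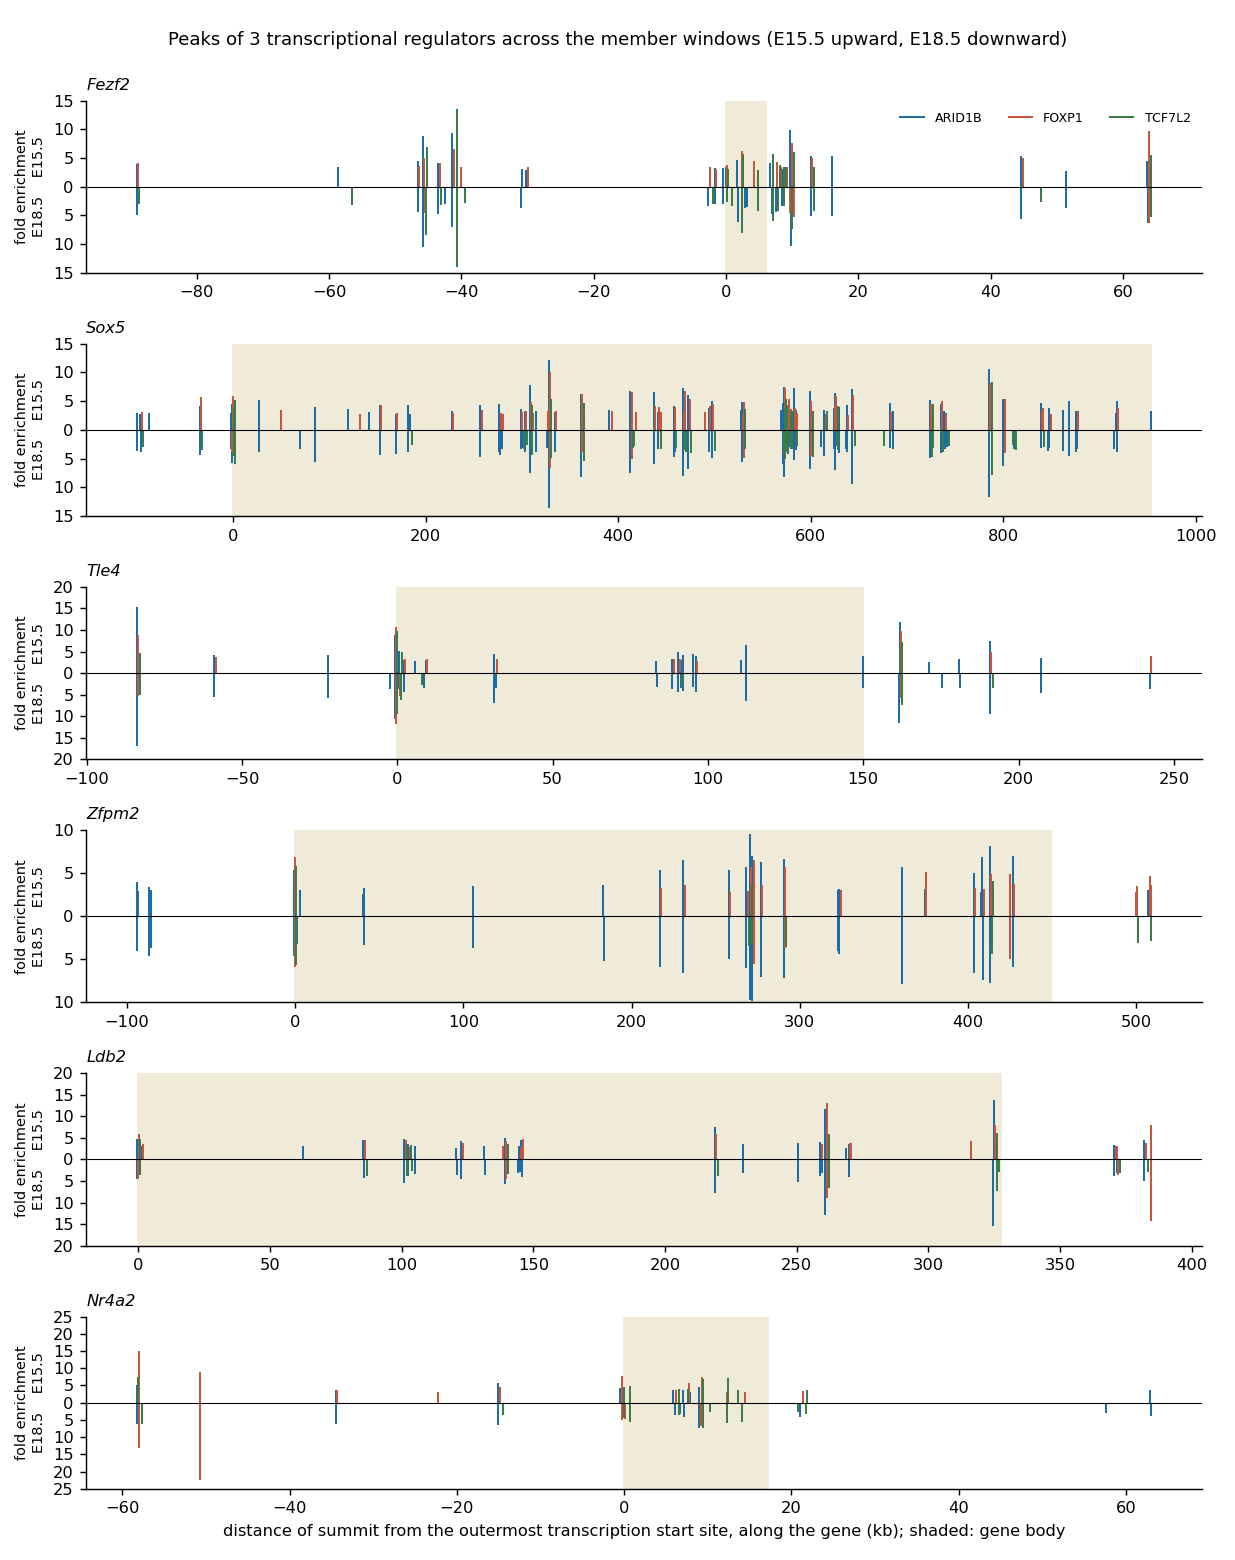
Every peak in the 6 windows, at the distance of its summit from the outermost TSS along the gene (x axis, kb, negative values upstream) with its fold enrichment as the height of the line, upward for E15.5 and downward for E18.5, with a y range of its own in each panel. The TRs are set slightly apart on the x axis, the shading is the gene body, and the tallest line is the FOXP1 peak of E18.5 upstream of *Nr4a2*.

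Sharing between TRs at 1 stage was described with loci merged per stage, promoter-overlapping (proximal) peaks of any gene and other (distal) peaks apart. At E15.5, 13 of 25 proximal and 24 of 183 distal loci in the windows held all 3 TRs, or 52.0% and 13.1%, against 63.1% and 17.5% over the genome. At E18.5, 10 of 28 proximal and 13 of 173 distal loci did, or 35.7% and 7.51%, against 54.9% and 10.1%. *Fezf2* had 8 such loci of 20 at the earlier stage and 3 of 27 at the later stage, and *Sox5* 13 of 87 and 7 of 79. The count over all members went from 37 to 23 with FOXP1 included. Loci with ARID1B and TCF7L2, whether or not FOXP1 was there, an alternative chosen after the data were seen, numbered 39 and 66, of which 37 and 23 held FOXP1 too. They were 18.8% and 32.8% of the loci in the windows, against 30.2% and 40.3% over the genome. In lists of equal length they numbered 25 and 29, each of 80 loci (31.3% and 36.3%), against 37.5% and 35.9%. Loci with all 3 TRs in these shorter lists numbered 22 and 14 of 80 (27.5% and 17.5%), against 34.2% and 27.9%. Among distal loci there, all 3 TRs were in 22.1% at the earlier stage and 12.1% at the later one, against 19.6% and 12.3%. Among proximal loci there, they were in 58.3% and 42.9%, against 57.1% and 52.7%. At E18.5, 107 of 201 loci in the full lists held ARID1B and no other TR, 21 TCF7L2 alone, and 3 FOXP1 alone. These are 53.2%, 10.4%, and 1.49%, against 35.4%, 18.1%, and 2.81% over the genome. The shares with ARID1B alone were 56.1% against 44.4% among distal loci, and 35.7% against 9.68% among proximal ones (10 of 28). In lists of equal length, 27 of 80 loci held ARID1B alone (33.8% against 21.5%), 8 TCF7L2 alone (10% against 11.4%), and 5 FOXP1 alone (6.25% against 14.0%). By class, ARID1B alone was then in 26 of 66 distal loci (39.4% against 33.0%) and in 1 of 14 proximal ones (7.14% against 3.26%).

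Peaks of the same TR were then compared between stages. Of the ARID1B peaks of E15.5 in the windows, 145 of 187 (77.5%) were overlapped by an ARID1B peak of E18.5, against 78.2% of the whole list. In reverse it was 155 of 181 (85.6%) against 85.5%. TCF7L2 had 49 of 51 (96.1%) against 95%, and in reverse 46 of 93 (49.5%) against 56.5%. FOXP1 had 26 of 145 (17.9%) against 34.2%, and in reverse 32 of 33 (97.0%) against 96.3%. Among proximal FOXP1 peaks of E15.5, 9 of 19 (47.4%) in the windows were overlapped, against 66.5%. With each list reduced to 24872 peaks, FOXP1 had 25 of 46 (54.3%) against 75%. Most member peaks are distal, and among distal peaks alone, a split chosen after the data were seen, FOXP1 had 17 of 126 (13.5%) against 19.9%. In lists of equal length it had 16 of 33 distal peaks (48.5%) against 55.0%, a smaller gap than over all peaks. The part of the lower depth of the later FOXP1 list in these counts was not tested.

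Where both stages had a peak, fold enrichments were close to the shift of the whole list. The median ratio of E18.5 over E15.5 was 1.09 over 143 ARID1B loci of the members against 1.08 over the genome, 1.02 over 44 TCF7L2 loci against 1.04, and 0.773 over 26 FOXP1 loci against 0.813. Fold enrichment was lower at E18.5 in 20 of the 26 FOXP1 loci and higher in 6, and it was lower in 81.9% of FOXP1 loci over the genome. Poisson intervals of the stages were apart in 3 of 26 FOXP1 loci, against 9.37% over the genome, and in none of the ARID1B and TCF7L2 loci, against 0.0593% and 0.0210%. One of the 3 was the *Tle4* locus past the gene end, with the lower value at E18.5. The 1 added to pileup and background lowers FOXP1 folds more at E18.5, where the background was 2.81 reads against 6.90 at E15.5. Its part in the FOXP1 ratios and intervals was not tested.

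**Figure D4:**
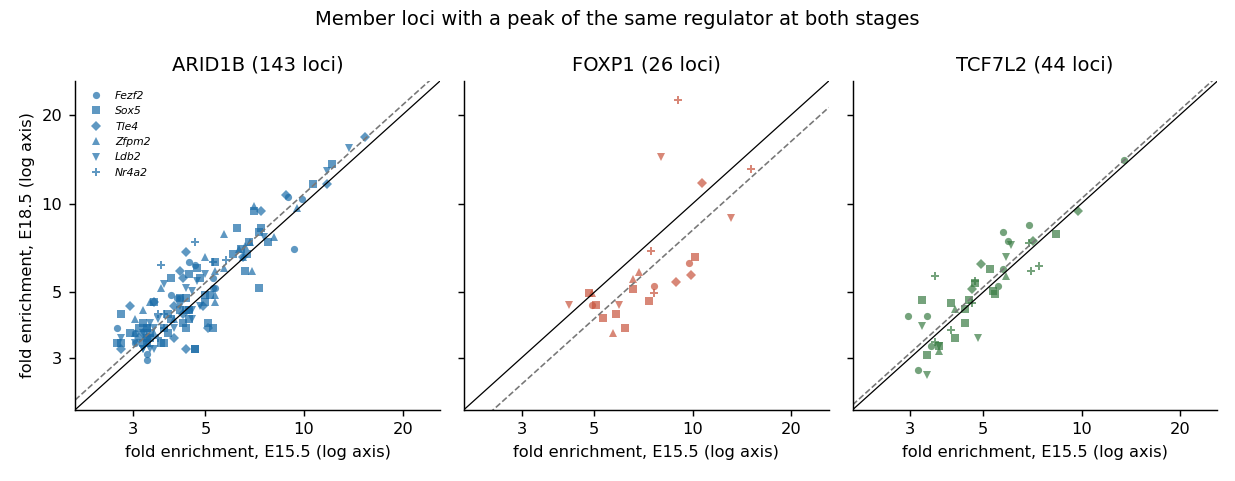
Fold enrichment at E15.5 (x axis) and E18.5 (y axis), both on log axes, for member loci with a peak of the same TR at both stages, with 1 symbol per member. The solid line marks equal values and the dashed line the median ratio over all loci of that TR. In the FOXP1 panel, the *Nr4a2* and *Ldb2* points at 22.5 and 14.4 stand above the solid line.

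The other 2 loci had the higher value at E18.5. A locus 50.7 kb upstream of *Nr4a2*, inside the noncoding gene *BB557941* and outside its exons (chr2:57174408-57174910), had FOXP1 peaks and no ARID1B or TCF7L2 peak at either stage. Its FOXP1 value was 8.99 (7.03 to 11.3) at the earlier stage and 22.5 (19.1 to 26.3) at the later stage, the highest value of any TR in the windows and rank 43 of 24872. The ratio of 2.50 was above 99.7% of FOXP1 ratios. A locus 57.2 kb past the end of *Ldb2* (chr5:44414055-44415288), within the noncoding gene *Gm36017*, had FOXP1 values of 7.97 (6.14 to 10.2) and 14.4 (11.7 to 17.5), a ratio of 1.8 above 99.1% of ratios. ARID1B had 4.37 and 5.19 in that locus, and TCF7L2 had no peak. The 200 bp around both FOXP1 summits of E18.5 are shown, with each run of at least 4 TTG units (CAA on the other strand) in capitals.
Nr4a2 locus of FOXP1, chr2:57174613-57174812, plus strand: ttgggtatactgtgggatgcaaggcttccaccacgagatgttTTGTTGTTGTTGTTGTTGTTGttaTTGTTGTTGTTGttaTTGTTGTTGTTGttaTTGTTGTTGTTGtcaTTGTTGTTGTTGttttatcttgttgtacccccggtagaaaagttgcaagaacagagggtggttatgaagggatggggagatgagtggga
Ldb2 locus of FOXP1, chr5:44414872-44415071, plus strand: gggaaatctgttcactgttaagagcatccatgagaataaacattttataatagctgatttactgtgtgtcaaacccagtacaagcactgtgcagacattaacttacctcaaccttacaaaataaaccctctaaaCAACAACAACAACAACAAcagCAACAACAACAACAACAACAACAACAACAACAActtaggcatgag
The *Nr4a2* window held 69 bases in such runs and the *Ldb2* window 51. The forkhead letters TGTTTAC were in neither, and the *Nr4a2* window held 1 match to the SOX letters.

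These runs were then counted at all summits, a comparison chosen after the sequences of both loci were seen. A run of at least 4 TTG units lay within 100 bp of 4.09% of the FOXP1 summits of E18.5 and 0.663% of those of E15.5, against 0.0715% to 0.136% in the ARID1B and TCF7L2 lists. Among the 100 strongest FOXP1 peaks, 23 had a run at E18.5 and 0 at E15.5. Of 21726 FOXP1 loci with a peak at both stages, the 383 with a run had a median ratio of 1.76 (quartiles 1.26 and 2.2) and the others 0.810 (quartiles 0.709 and 0.936). Of the 206 FOXP1 loci with a ratio of at least 1.8, 178 (86.4%) had a run. ARID1B and TCF7L2 loci with a run had median ratios of 1.11 and 1.02, against 1.08 and 1.04 without. In the member windows, 3 FOXP1 summits had a run at each stage, among them those of the *Nr4a2* and *Ldb2* loci at both. The other 2 lay at different places in *Sox5*, with 3.80 at chr6:143941116 at the earlier stage and 4.68 at chr6:144208780 at the later stage. The second belonged to a locus with FOXP1 peaks at both stages, where the value fell from 7.34 to 4.68, a ratio of 0.637. The peaks were called against a constant background, so input reads at such repeats did not enter the fold, and the part of read placement in repeats was not tested.

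**Figure D5:**
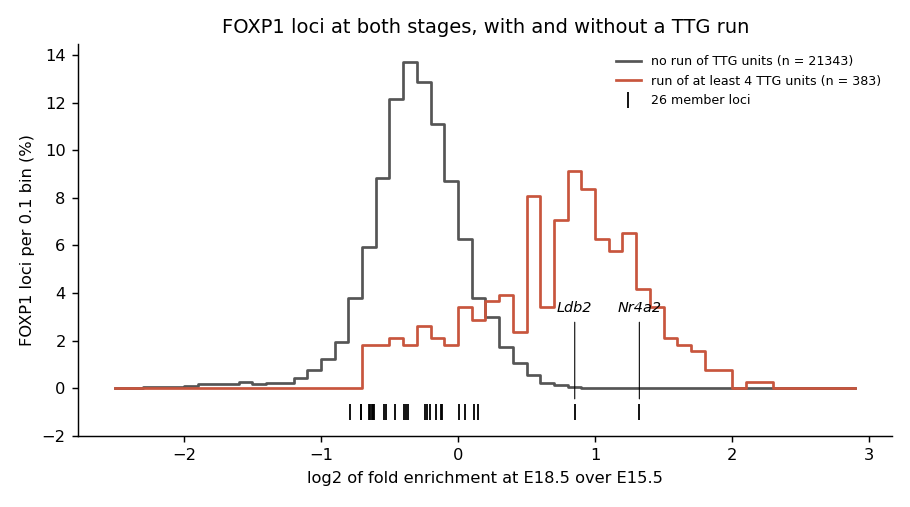
Share of FOXP1 loci (y axis, percent per bin of 0.1) by the log2 ratio of fold enrichment at E18.5 over E15.5 (x axis), for 383 loci with a run of at least 4 TTG units and 21343 without. Ticks under the curves are the 26 member loci, of which the named *Ldb2* and *Nr4a2* loci lie in the range of loci with a run. A *Sox5* locus with a run, not named in the plot, had a ratio of 0.637.

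Short letters were looked for, on either strand, in the 200 bp centered on each summit: TGTTTAC (forkhead), ATCAAAG (TCF/LEF), AGGTGTGA (T-box), the E-boxes CAGCTG and CAGATG, and ACAATG (SOX). No string contains another, and a window can hold several. Among all member summits, CAGATG was in 35.3% of ARID1B windows at E15.5 against 28.9% of the list, and in 31.4% of TCF7L2 windows against 17.3%. Most member peaks are distal, however, and among distal peaks alone the shares were 39.5% against 34.5% for ARID1B and 41.2% (14 of 34) against 25.9% for TCF7L2 at E15.5. At E18.5 they were 34.6% against 34.0% and 17.8% against 24.5%. For FOXP1, CAGATG was in 30.2% of distal member windows against 27.1% at the earlier stage and in 6 of 20 against 23.3% at the later stage. The other E-box, CAGCTG, was in 12.1% to 17.6% of member windows against 13.1% to 19.6% of the lists, below the list in each except TCF7L2 at E15.5 (17.6% against 16.7%). The forkhead letters were in 4 of 145 FOXP1 windows at the earlier stage and 1 of 33 at the later stage, or 2.76% and 3.03%, against 2.89% and 2.28% of the lists. The TCF/LEF letters were in 1 of 51 and 4 of 93 TCF7L2 windows, or 1.96% and 4.30%, against 2.35% and 2.58%. Among distal TCF7L2 peaks alone, the TCF/LEF letters were in 0 of 34 member windows at E15.5 and 2 of 73 (2.74%) at E18.5, against 3.17% and 3.197% of all distal ones. The forkhead letters were in 3.17% and 5% of distal FOXP1 member windows, against 3.47% and 3.35%. The T-box letters were in 0 to 1 member windows per list, and in 0.442% to 0.833% of all windows of a list. The SOX letters were in 7.84% to 12.9% of member windows against 6.14% to 8.71% of the lists, and among distal peaks in 5% to 13.7% against 8.21% to 10.0%, with the FOXP1 list of E18.5 below its background (5% against 8.99%). In windows of 100 bp, the sign of the gap between members and list changed in 6 of 36 pairs of letters and list.

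The promoters of 18 other genes were read for comparison, namely 4 of layer 6, 5 of layer 5, 6 of the subplate, and 3 regulators or partners of members. Of these, 15 at the earlier stage and 14 at the later stage had a promoter locus of all 3 TRs, and 13 had a promoter peak in all 6 lists. All 3 regulators or partners were in each of these counts. Over all protein-coding genes the shares were 55.2%, 52.5%, and 51.8%. The median FOXP1 promoter value of E15.5 was 6.96 over the 16 listed genes with a peak, near the 7.09 of the members. *Cplx3*, a subplate complexin, had none in any list. The layer 6 gene *Foxp2* had the highest promoter value of this list at E18.5, with 18.1 for ARID1B and 26.2 for FOXP1, which exceeded 99.7% and 99.8% of genes. The layer 5 gene *Bcl11b* had 29.0 for FOXP1 at the earlier stage and 5.71 at the later stage. *Sox4* and *Sox11*, which encode SoxC factors and are among the regulators, had 20.3 and 17.3 for FOXP1 at E15.5. At the low end of the same list were *Crym* (3.29), *Rbp4* (3.42), *Ccn2* (4.18), and *Syt6* (4.43). The upper-layer genes *Cux1*, *Cux2*, *Pou3f2*, *Pou3f3*, *Rorb*, *Mdga1*, and *Lhx2* each had a promoter locus of all 3 TRs at both stages, against 55.2% and 52.5% of protein-coding genes.

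The protein-coding genes whose promoter values over the 6 lists were nearest to those of a member were found by the Euclidean distance of log2 fold enrichment, among 11375 genes with a promoter peak in all lists. For *Tle4* they were *Slc7a5*, *Bcl9*, and *Bmi1*, at distances of 0.23 to 0.34 against a median of 1.53. For *Sox5* they were *Chst15*, *Mfsd6*, and *Ston2* (0.19 to 0.27), and for *Zfpm2* *Kcng1*, *Slc12a4*, and *Ypel4* (0.12 to 0.20). For *Ldb2* they were *Dnah6*, *Ankrd34a*, and *Mfge8* (0.23 to 0.31), and for *Nr4a2* *Atp11b*, *Zbtb38*, and *Scmh1* (0.30 to 0.33). *Fezf2* was left out, since it lacks a FOXP1 promoter peak at E18.5.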

How the data were processed

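Peak lists from ChIP-seq of 3 TRs in cortex of mice at 2 embryonic stages were analysed. Alignment by the authors was to GRCm38 (mm10), by bwa mem (0.7.15). They filtered alignments with samtools, merged replicates, and called narrow peaks with MACS2 (2.2.7 in the submitters' processing notes) against matched input, with reads extended to 200 bp, no model, and no local background. The deposited lists hold a fold enrichment (a ratio with 1 added to pileup and background), the authors' −log10 p-value and −log10 q-value, and a deposited score column, not used here, which follows the q-value. The sources used here do not say how duplicate reads were handled.

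Peaks were joined to GENCODE vM21 genes with Python 3.11.15, numpy 2.4.6, pandas 2.3.3, and scipy 1.17.1, and sequences were read with pysam 0.24.0 from the RefSeq copy of GRCm38. The study's own annotation used a later GENCODE release. Overlap meant at least 1 base. The background and the value of 1 ChIP read were recovered in each list from fold and p-value, which matched within 0.01 for at least 99.8% of peaks, and Poisson intervals were computed on the reads. The implied smaller library of ChIP and input was 26.3 M reads in the later FOXP1 list, and between 57.3 and 80.7 M elsewhere. In the later FOXP1 list the ChIP was the larger library, with 46.9 M reads implied, and each ChIP read counted as 0.561. The implied ChIP libraries of the other lists held 57.3 to 94.3 M reads. Scripts were checked on simulated data.

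The 6 members and all gene lists were chosen with earlier results of these data known. Values named in the text were taken from the members, their strongest peaks per list and class, loci in all 6 lists or with all 3 TRs at 1 stage only, other genes whose promoter in a window held a peak, listed genes with no promoter peak, and the 3 nearest genes of each member. Other listed genes were chosen after their values were seen. Alternatives were a −log10 p minimum of 15, a flank of 50 kb, summits in place of overlap, another promoter, lists of equal length, summits of the 3 TRs within 500 bp, 100 bp motif windows, distal or proximal peaks alone, and shares of loci by the TRs held. Some listed genes and 1 locus are not reported here.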

Additional observations from a re-analysis of the deposited data

How the results depend on the processing

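Counts were recomputed under each alternative and called unchanged within 1.5-fold. A 50 kb flank, a promoter of 1000 bp upstream to 500 bp downstream, and summits of the 3 TRs within 500 bp moved none of the counts they were applied to past that limit. Motif windows of 100 bp lowered the shares, many by more than 1.5-fold (forkhead letters in FOXP1 peaks of E15.5 from 4 of 145 to 0), and turned the sign of 6 of the 36 gaps between members and list, with no gap moved by more than the half-width of the exact 95% binomial interval of the member share. Requiring the summit inside the promoter changed 1 of 18 counts, the FOXP1 promoter peaks of E15.5, from 13 to 8. With −log10 p of at least 15, the windows held 75 ARID1B, 47 FOXP1, and 19 TCF7L2 peaks at the earlier stage and 63, 7, and 27 at the later one. Promoter peaks were then 9 for ARID1B and 7 for TCF7L2 at the earlier stage, and 5, 2, and 9 for the 3 TRs at the later one. Members with a FOXP1 promoter peak at E18.5 numbered 2, and so did members with a promoter locus of all 3 TRs, while all-TR loci numbered 16 and 5 at the stages. With each list reduced to 24872 peaks, window peaks were 63 for ARID1B and 46 for FOXP1 at E15.5, and 63 for ARID1B and 43 for TCF7L2 at E18.5. ARID1B promoter peaks were 7 and 5, all-TR loci 22 and 14, and members with an all-TR promoter locus at E18.5 numbered 3. At that stage, 4 members had an ARID1B promoter peak and 5 a TCF7L2 one, as with −log10 p of at least 15. Both counts were within the 1.5-fold limit of 6. Reduced lists keep fewer peaks by construction, except FOXP1 at E18.5, which was already the shortest. The part of this in the drops was not tested. In the same reduced lists, an alternative chosen after seeing the data, 52 of 63 ARID1B peaks of E15.5 (82.5%) were overlapped at E18.5, against 83.9% of the whole list. Loci with ARID1B and TCF7L2 at E18.5, with or without FOXP1, numbered 66, an alternative also chosen after seeing the data. No paired analysis was possible because each list merges its replicates, and for the same reason no replicate could be left out. The background of 2.81 reads for FOXP1 at E18.5 is on the scale of the smaller library, not of the ChIP. That scale limits which weak peaks could be called, so an absent FOXP1 peak at that stage is only a peak not called. The part of depth in the absent peaks was not tested.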
